A study of Mus musculus with 5 samples.

Results

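The 9 genes Mup1, Mup3, Mup7, Mup9, Mup11, Mup12, Mup16, Mup17 and Mup20, of the major urinary protein family, were followed in single-nucleus RNA-seq of mouse liver. They are 9 of the 22 Mup symbols among the 32285 genes of the matrices, and their rows were taken by symbol. The list itself was chosen by the levels of these genes in the hepatocyte nuclei of the 2 diets, so their MASH against chow values in hepatocyte nuclei are given as a description, with no test. Wild-type C57BL6/J male mice received either regular chow or a MASH diet, in which fat gave 40 kcal%, fructose 20 kcal% and cholesterol made up 2%, from 10 to 12 weeks of age for 5 months, and sorted nuclei of frozen liver gave 3 chow libraries and 2 MASH libraries. MASH is metabolic dysfunction–associated steatohepatitis, a fatty liver disease with inflammation and fibrosis, and the diet is its model here. No source says how many mice stand behind a library, so the library was the replicate, and p values measure only the spread between these libraries.

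Major urinary proteins are small secreted lipocalins, barrel-shaped proteins that hold a volatile ligand in a central pocket. In mice the liver makes most of them, the kidney passes them into urine, and there they carry and slowly release scent molecules used in social signalling. The protein encoded by Mup20, called darcin, is itself a male scent. Their transcription in the liver is known to depend on pulsed growth hormone acting through STAT5, on glucocorticoids and on thyroid hormone, and it is higher in males.

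All 22 Mup genes lie on chromosome 4 (GRCm38), and 21 of them, including all 9 described here, are on the minus strand. The 9 genes span 2.02 Mb, from Mup7 (ENSMUSG00000073842, 60066469 to 60070475) through Mup9 (ENSMUSG00000078686, 60418046 to 60421952), Mup1 (ENSMUSG00000078683, 60498012 to 60501960), Mup11 (ENSMUSG00000073834, 60658466 to 60662411), Mup12 (ENSMUSG00000094793, 60737383 to 60741326), Mup16 (ENSMUSG00000078675, 61515592 to 61519531), Mup17 (ENSMUSG00000096688, 61591929 to 61595871) and Mup20 (ENSMUSG00000078672, 62050234 to 62054158) to Mup3 (ENSMUSG00000066154, 62083476 to 62087342). All are annotated as protein coding, and none overlaps another annotated gene.

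The 9 genes differ in how well their reads can be told apart. The longest coding transcripts of the 7 genes other than Mup3 and Mup20 were 94.1% to 99.6% identical over their 21 pairs. Mup3 was at most 75.7% identical to another of the 9, and its closest relative in the cluster was Mup21, at 94.7%. Of the 90-base windows in the last 500 bases of the transcript, where 3′ libraries take most reads, every one was found in no other annotated gene of the region for Mup3, as were 90.3% for Mup20. The share was 65.2% for Mup17, 31.1% for Mup11, 25.3% for Mup9, 15.8% for Mup16 and 12.2% for Mup12, and it was 0.730% for Mup7 and 0% for Mup1. Counts of these 7 genes are therefore uncertain as to member, and reads that fit several copies can be lost from all of them. The authors describe nuclei reads longer than 90 bases, so these shares may understate how well reads separate the genes. Windows of that length were not tested. A level is compared between genes below only as UMIs assigned to the gene. Transcript length hardly enters, since a 3′ library counts a transcript once and the 9 transcripts were 909 to 1033 bases long.

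Promoter sequence could be compared for some of the genes. RefSeq gave a window from 250 bases before to 50 bases after a transcript start (GRCm38.p6) for Mup3, Mup7, Mup9, Mup11 and Mup17. The stretches below are the 91 bases around the letters TATATAA (capitals), a TATA-like motif, in 4 of them, shown because near-identical stretches belong to genes whose levels differed between diets and zones by different amounts. All are read from the minus strand, at chr4:60421973-60422063 for Mup9, chr4:60662387-60662477 for Mup11, chr4:61595847-61595937 for Mup17 and chr4:62087318-62087408 for Mup3.
Mup9: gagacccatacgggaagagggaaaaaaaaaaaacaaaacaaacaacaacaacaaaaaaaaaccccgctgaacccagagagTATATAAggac
Mup11: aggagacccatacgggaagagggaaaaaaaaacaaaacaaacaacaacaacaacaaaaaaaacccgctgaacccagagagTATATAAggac
Mup17: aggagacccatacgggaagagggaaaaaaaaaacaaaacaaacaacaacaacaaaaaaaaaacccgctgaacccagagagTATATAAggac
Mup3: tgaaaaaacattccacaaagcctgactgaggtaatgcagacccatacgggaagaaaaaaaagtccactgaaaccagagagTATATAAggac

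The Mup9, Mup11 and Mup17 stretches were 94.6% to 97.8% identical to each other, with runs of A and C of varying length, whereas Mup3 was 60.6% to 62.0% identical to them. TATATAA, searched on both strands, was in 4 of the 5 windows, in 9 of 9 windows of other Mup genes and in 3.24% of the 32841 promoter windows of this length. The Mup7 window did not hold these letters. The STAT-type motif TTCNNNGAA was in 0 of the 5 windows and in 8.30% of all windows. In the 4 printed stretches the motif began 31 (Mup9), 2 (Mup11), 25 (Mup17) and 11 (Mup3) bases before the RefSeq transcript start. By the gene coordinates given above, it lay inside the gene for Mup11, Mup17 and Mup3 and outside it for Mup9. The place of the motif relative to the RefSeq start thus differed, and whether it acts as a TATA box was not tested. These are matches of letters only.

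The libraries held 8633 to 12935 barcodes and 35612373 to 49137377 UMIs each. Hepatocyte nuclei were those with at least 2000 UMIs and at least 1 UMI of Hnf4a, a hepatocyte transcription factor, and numbered 4222, 6744 and 7006 in chow libraries 1 to 3 and 2684 and 2611 in MASH libraries 1 and 2. Their median UMI count was 3871.5 to 5475. The share of hepatocyte nuclei that also held at least 2 UMIs of markers of other liver cells was 12.4% to 23.7% in chow. It was 44.2% and 53.3% in MASH. Leaving out such nuclei was among the alternative settings of the diet fit below, and no other test of their part was made. Any pair of libraries shared 23 to 48 barcodes, 0.199% to 0.399% of a library. The 9 genes together took 0.390%, 0.717% and 0.718% of all UMIs in chow libraries 1 to 3 and 0.565% and 0.240% in MASH libraries 1 and 2.

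In chow, Mup3 and Mup20 had the highest levels of the 9 genes, and Mup11, Mup17 and Mup7 came next. In MASH, Mup20 was the one gene that was not lower than in chow, and it made up most of what remained of the family. Levels are CPM, the UMIs of a gene per 1000000 UMIs of the hepatocyte nuclei of a library. Mup20 had 819, 1511 and 1569 CPM in chow libraries 1 to 3 and 3594 and 2041 in MASH libraries 1 and 2. On this scale both MASH libraries lay above the 3 chow libraries, as they did for 28.9% of the 15414 genes fitted, but with TMM scaling of library sizes MASH 2 (1687) lay inside the chow range (753 to 2073). The fitted log2 difference, MASH over chow, was 0.73 (SE 0.53).

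Mup3 had 1192, 1844 and 2049 CPM in chow and 509 and 227 in MASH. Every MASH library was below every chow library, and the fitted log2 difference was -2.58 (SE 0.59). Mup3 is the most divergent in sequence of the 9 genes.

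The remaining 7 genes were all lower in both MASH libraries than in any chow library, by amounts that ranged from about that of Mup3 to much more. Mup11 had 636, 864 and 1089 CPM in chow and 17.0 and 4.89 in MASH (log2 difference -6.68, SE 0.81). Mup17 had 427, 526 and 507 in chow and 23.3 and 5.24 in MASH (-5.43, SE 0.76). Mup7 had 258, 485 and 474 in chow and 4.36 and 0.461 in MASH (-7.78, SE 1.07), the last from 8 UMIs (95% exact Poisson interval 0.199 to 0.907, counting error only).

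Mup1 showed the lowest MASH level. It had 73.3, 89.0 and 187 CPM in chow and 0.859 and 0.173 in MASH, from 13 and 3 UMIs, and the exact Poisson interval of the last was 0.0356 to 0.505. Mup12 had 60.1, 106 and 132 in chow and 3.77 and 1.497 in MASH. Mup16 had 53.2, 75.8 and 92.3 in chow and 2.58 and 0.576 in MASH. The log2 differences of these 3 genes were -8.27 (SE 0.94), -5.65 (SE 0.69) and -5.95 (SE 0.74). MASH 2 was below MASH 1 in each of them.

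The difference of Mup9 was about as large as that of Mup3. It had 143, 67.3 and 87.0 CPM in chow and 23.1 and 17.3 in MASH, with a log2 difference of -2.60 (SE 0.35). Its highest chow library was chow 1, which was the lowest chow library for the other 8 genes.

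**Figure D1:**
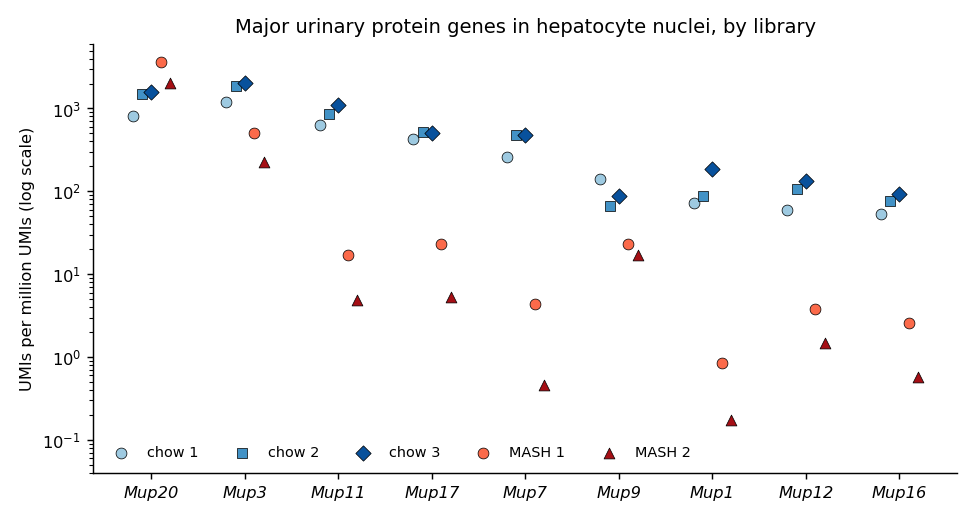
CPM of hepatocyte nuclei (log axis) for each of the 9 genes, 1 point per library (blue, chow 1 to 3; red, MASH 1 and 2). Mup20 is above chow in both MASH libraries on this scale, Mup3 and Mup9 are lower in MASH by less than the rest, and the other 6 genes are at or below 23.3 in MASH.

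Group levels in chow were 1695 ± 447 CPM for Mup3, 1300 ± 417 for Mup20 and 863 ± 226 for Mup11 (SD, n = 3 each). Mup17 had 487 ± 52.4, Mup7 405 ± 128, Mup1 116 ± 61.7, Mup12 99.6 ± 36.6, Mup9 99.1 ± 39.2 and Mup16 73.8 ± 19.6 (SD, n = 3 each). The ranges over libraries overlap between neighbours in this order except between Mup11 and Mup17 and between Mup7 and Mup1. Within libraries Mup3 was above Mup20, Mup17 above Mup7 and Mup12 above Mup16 in 3 of 3, while the order of Mup1, Mup12 and Mup9 changed from library to library. In MASH the order was Mup20 (2817 ± 1098), Mup3 (368 ± 199.7), Mup9 (20.2 ± 4.15), Mup17 (14.3 ± 12.8) and Mup11 (10.9 ± 8.55), with Mup12, Mup7, Mup16 and Mup1 at 2.63 ± 1.61, 2.41 ± 2.76, 1.58 ± 1.42 and 0.516 ± 0.486 (SD, n = 2 each). Here neighbours' ranges overlap except between Mup20 and Mup3, Mup3 and Mup9, and Mup11 and Mup12. Mup17 was above Mup11 in 2 of 2 MASH libraries, while Mup9 and Mup17, and Mup12 and Mup7, changed places between them.

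These differences are a description, since the genes were named with this contrast known. Every MASH library was below every chow library for 8 of the 9 genes and for 25.6% of the 15414 genes fitted, and nothing is read from the count of 8. Over 18 alternative settings the fitted log2 difference ran from 0.18 to 1.31 for Mup20, from -3.37 to -2.03 for Mup3 and from -2.89 to -2.13 for Mup9. It ran from -9.86 to -7.46 for Mup1 and from -10.2 to -6.88 for Mup7, and for Mup11, Mup12, Mup16 and Mup17 it lay between -7.93 and -4.70. Counted as UMIs per nucleus, on which the median gene was 0.54 higher in MASH on the log2 scale, the log2 difference was 1.31 for Mup20, -2.03 for Mup3 and -2.13 for Mup9.

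The make-up of the family differed between the diets as well. Mup3 gave 32.6% to 33.1% and Mup20 22.4% to 27.1% of the 9 genes' UMIs in chow hepatocyte nuclei. In MASH 1 and MASH 2, Mup20 gave 86.0% and 88.8% and Mup3 12.2% and 9.86%, and the other 7 genes together gave the small rest. The widest 95% Wilson interval of any such share reached 0.729 percentage points to either side, and intervals cover counting error only.

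**Figure D2:**
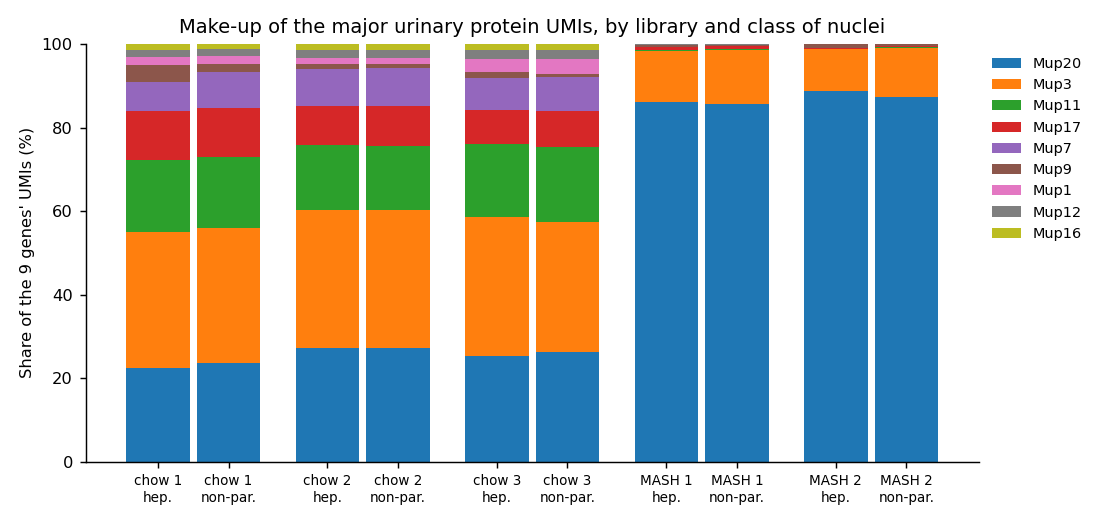
Share of the UMIs of the 9 genes (%, stacked to 100) taken by each gene, for hepatocyte (hep.) and non-parenchymal (non-par.) nuclei of each library. Within a library the 2 bars are similar, though Mup9 and, in some libraries, other genes differ beyond counting error. Mup20 takes 86.0% and 88.8% in the MASH hepatocyte nuclei against 22.4% to 27.1% in chow.

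Among single hepatocyte nuclei, each thinned to 2000 UMIs so that depth is equal and none was left out, Mup3 had a UMI in 85.9%, 95.7% and 97.4% of chow nuclei and in 60.9% and 32.2% of MASH nuclei. Before thinning the shares were 98.0%, 99.8% and 99.97% in chow and 85.7% and 59.7% in MASH. Mup20 had a UMI in 68.5%, 92.5% and 93.9% of chow nuclei and 99.3% and 91.6% of MASH nuclei (before thinning, 89.3% to 99.8% and 98.8% to all). Mup1 had one in 14.3% to 34.2% of chow nuclei, 0.224% of MASH 1 nuclei and 0 of 2611 MASH 2 nuclei, which allows a share of up to 0.115%. Wilson intervals reached at most 1.84 percentage points to either side. These shares cannot be read as shares of expressing cells, as the next comparison shows.

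The level of the 9 genes outside hepatocytes was taken from nuclei with no Hnf4a UMI and at least 2 UMIs of endothelial, stellate, macrophage, lymphocyte or cholangiocyte markers (1769, 931 and 1373 nuclei in chow libraries 1 to 3, 5136 and 5480 in MASH). These cell types are not known to transcribe Mup genes. The 9 genes together had 4872, 12245 and 13816 CPM there in chow and 6158 and 2351 in MASH, against 3662, 5569 and 6185 in chow hepatocyte nuclei and 4178 and 2297 in MASH hepatocyte nuclei. As CPM, the non-parenchymal level was the higher one in all 5 libraries. Within a library most of the genes stood in similar proportions in both classes. In chow 3, for example, Mup3 gave 33.1% of the family's UMIs in hepatocyte nuclei and 31.1% in non-parenchymal nuclei, and Mup20 gave 25.4% and 26.2%. Mup9 departed from this, with 3.90% in hepatocyte and 2.00% in non-parenchymal nuclei of chow 1. Its shares were 0.554% and 0.211% in MASH 1 and 0.752% and 0.406% in MASH 2. The Wilson intervals of Mup9 did not overlap in any of the 5 libraries. Those of other genes were also apart in some libraries, including Mup3 and Mup20 in chow 3. Mup7 gave 7.04% and 8.54% in chow 1, and Mup3 gave 9.86% and 11.7% in MASH 2. The 5 libraries stood in the same order of level in both classes.

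The result of this comparison depends on the scale. With TMM scaling, 8 of the 9 genes were called lower in chow hepatocyte than in non-parenchymal nuclei, by log2 differences of -0.52 (Mup16) to -0.74 (Mup7; adjusted p from 0.00241 to 0.0315, edgeR), where 56.6% of 16083 genes were called, 25.9% lower and 30.6% higher. Mup9 was the exception (0.08, SE 0.21, adjusted p = 0.779), and it lay at -0.35 without chow 1 and at 0.48 without chow 2, the latter called (adjusted p = 0.0248). Counted per nucleus, the same 8 genes were higher in chow hepatocyte nuclei, by 0.43 (Mup7) to 0.65 (Mup16), and Mup9 by 1.25 (SE 0.25), all 9 called. On that scale the median gene was 1.34 higher, which is above the value of each of the 9 genes. The medians of UMIs per nucleus were 3871.5 to 5475 in hepatocyte and 1056 to 1451.5 in non-parenchymal nuclei. With both classes held to at least 2000 UMIs, the TMM-scaled differences of the 8 genes were between -0.20 and -0.11 and none was called, and Mup9 was higher in hepatocyte nuclei by 0.40 (SE 0.14, adjusted p = 0.0304). Back on all nuclei, without chow 2 the TMM-scaled calls of Mup3 (-0.23), Mup11 (-0.28), Mup12 (-0.24), Mup16 (-0.18), Mup17 (-0.33) and Mup20 (-0.35) were lost and Mup1 (-0.41) and Mup7 (-0.46) were smaller, and without chow 3 Mup1, Mup3, Mup11, Mup12, Mup16, Mup17 and Mup20 lost their calls.

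In MASH libraries the TMM-scaled differences of Mup1, Mup3, Mup7, Mup11, Mup12, Mup16, Mup17 and Mup20 lay between -0.85 and -0.16 and none was called. Mup9 was higher in hepatocyte nuclei, by 0.86 (SE 0.28, adjusted p = 0.0265), where 37.2% of genes were called, 14.1% higher and 23.1% lower, and the call was lost without MASH 2 (0.75, adjusted p = 0.106) and with both classes held to at least 2000 UMIs (0.41, adjusted p = 0.133), and with all nuclei lacking Hnf4a (0.36, adjusted p = 0.308). Without MASH 1 the uncalled differences of Mup7, Mup11, Mup12, Mup16, Mup17 and Mup20 were above 0. Per nucleus all 9 were higher in hepatocyte nuclei, by 0.62 (Mup1) to 2.37 (Mup9), where the median gene was 1.52 higher. Only Mup9 lay above that median. By edgeR, Mup1 (SE 0.64, adjusted p = 0.377) and Mup7 (0.74, SE 0.36, adjusted p = 0.0845) were not called on this scale. Mup9 had 0.130 and 0.115 UMIs per hepatocyte nucleus in MASH 1 and MASH 2 and 0.0276 and 0.0203 per non-parenchymal nucleus. It was thus 4.72 and 5.67 times higher per hepatocyte nucleus in MASH 1 and MASH 2, against 4.52, 1.49 and 1.94 times in the chow libraries.

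**Figure D3:**
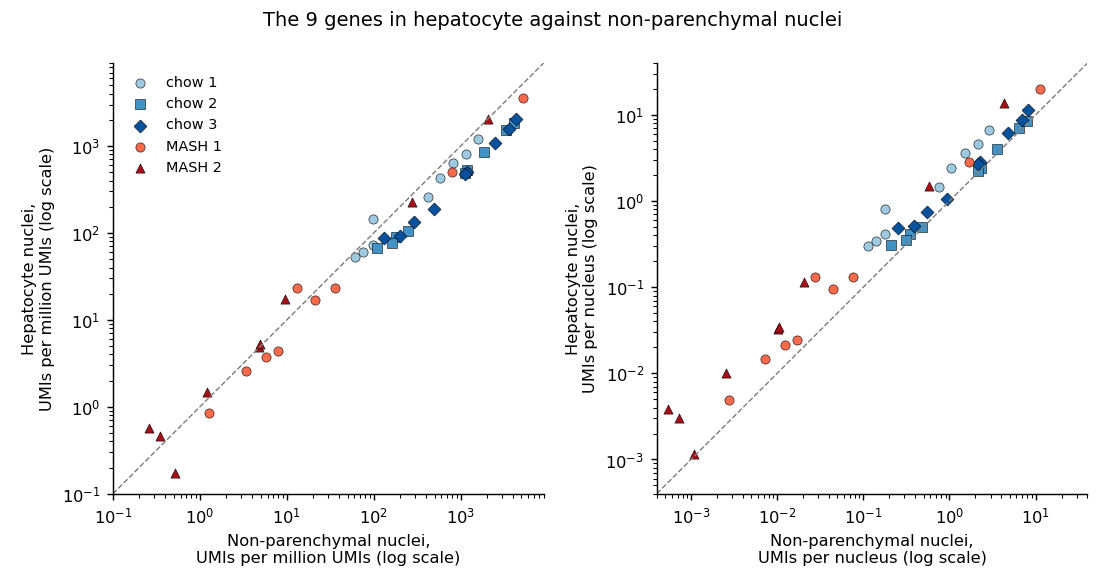
Level of each of the 9 genes in hepatocyte nuclei against non-parenchymal nuclei, 1 point per gene and library on log axes, as CPM (left) and UMIs per nucleus (right); the dashed line marks equal levels. Most points lie below the line on the left and all lie above it on the right.

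Nuclei of both classes were then thinned to 300 UMIs, with none left out. A UMI of Mup3 was found in 30.4%, 44.5% and 48.6% of chow hepatocyte nuclei and in 41.8%, 69.8% and 74.9% of chow non-parenchymal nuclei, and in MASH in 15.2% and 6.32% against 25.2% and 8.39%. The hepatocyte share of Mup3 was at or below the non-parenchymal share in all 5 libraries and is not read as a share of expressing cells. A UMI of Mup20 was found in 22.4%, 38.6% and 40.0% of chow hepatocyte nuclei and 33.5%, 64.7% and 69.6% of chow non-parenchymal nuclei, and in MASH in 65.3% and 45.3% against 80.4% and 43.1%, so that MASH 2 was the one library where the hepatocyte share was higher. The hepatocyte share of Mup9 was the higher one in chow 1 (3.39% of hepatocyte and 2.77% of non-parenchymal nuclei), MASH 1 (0.633% and 0.234%) and MASH 2 (0.536% and 0.128%), but not in chow 2 (1.94% and 3.01%) or chow 3 (2.55% and 4.30%).

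In the 5 kinds of non-parenchymal nuclei the 9 genes together had 6.73 to 16.4 UMIs per nucleus in chow 1, 18.9 to 24.0 in chow 2, 23.2 to 30.9 in chow 3, 10.5 to 14.7 in MASH 1 and 3.87 to 4.87 in MASH 2. Lymphocyte-marked nuclei were the lowest in all 5 libraries, and cholangiocyte-marked nuclei were the highest in chow 1, chow 3 and MASH 1. Mup3 had 7.10 UMIs per nucleus in lymphocyte-marked, 7.75 in stellate-marked, 7.86 in endothelial-marked and 8.06 in macrophage-marked nuclei of chow 3, and 1.36 to 1.79 in the 5 kinds in MASH 1. Mup20 had 9.04 to 12.7 in MASH 1 and 3.40 to 4.23 in MASH 2. Differences between the diets were present in non-parenchymal nuclei too. Mup3 had 1574, 4066 and 4291 CPM there in chow and 798 and 276 in MASH, and Mup11 had 822, 1853 and 2488 in chow and 20.9 and 4.82 in MASH. Mup20 had 1155, 3324 and 3624 CPM in chow non-parenchymal nuclei and 5271 and 2053 in MASH, so that here MASH 2 lay inside the chow range. Of the 9 genes, the 8 other than Mup20 were lower in both MASH libraries than in any chow library. Transcription in hepatocytes and RNA that entered droplets from outside a nucleus cannot be told apart in these levels, nor, for the class as a whole, can fewer transcribing cells and less RNA per cell.

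The next comparison is made among hepatocyte nuclei of the same library. RNA from outside a nucleus may be part of these levels too. Its part in the zonal differences, and in how they differed between diets, was not tested. Hepatocytes differ along the axis from the portal triad (periportal) to the central vein (pericentral), and nuclei of each library were cut into 3 equal zones of a score made from 14 zonal genes, with no Mup gene among them. The 8 held-out zonal genes (Oat, Gulo, Lect2 and Cyp2a5 pericentral; Sds, Gls2, Aldh1b1 and Hsd17b6 periportal) all went their known way in both diets. From 8.36% to 10.9% of nuclei lay near a limit between zones. Pericentral nuclei held markers of other liver cells less often than periportal nuclei in all 5 libraries (17.6% against 27.8% in chow 1, and 47.9% against 59.1% in MASH 2). Leaving out nuclei with such markers was among the alternative settings of the zone fits, and no other test of their part was made.

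In chow, the 9 genes were not zoned alike. Mup9, Mup17, Mup11 and Mup16 rose toward the central vein, Mup20 and Mup3 fell, and Mup7, Mup1 and Mup12 did not pass the test. The strongest was Mup9, with 35.0, 42.7 and 52.8 CPM in the periportal zone of chow libraries 1 to 3 and 253, 98.7 and 136 in the pericentral zone. The pericentral zone was above the periportal zone in all 3 libraries, and the fitted log2 difference was 1.69 (SE 0.19, adjusted p = 4.5e-06), where edgeR called 25.3% of 14545 genes, 13.6% higher and 11.7% lower pericentrally.

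Mup17 had 190, 411 and 442 in the periportal zone and 666, 679 and 606 in the pericentral zone (0.91, SE 0.16, adjusted p = 0.000348). Mup11 had 385, 696 and 1064 and, pericentrally, 879, 1095 and 1173 (0.60, SE 0.13, adjusted p = 0.00207). Mup16 was higher by 0.37 (SE 0.08, adjusted p = 0.00205), from 39.4, 62.8 and 87.9 to 61.2, 89.0 and 102. All 3 genes were higher pericentrally in 3 of 3 libraries. DESeq2 did not call Mup11 (adjusted p = 0.0793).

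Mup20 had 1142, 1630 and 1747 CPM in the periportal zone and 558, 1453 and 1476 in the pericentral zone (-0.53, SE 0.11, adjusted p = 0.0024). Mup3 had 1492, 1914 and 2169 and, pericentrally, 919, 1842 and 1994 (-0.34, SE 0.09, adjusted p = 0.0108). Both were lower pericentrally in 3 of 3 libraries. Chow 1 decided much of the size of these slopes. Without it the log2 difference was -0.25 for Mup20, -0.13 for Mup3, 0.35 for Mup11 and 0.54 for Mup17, all still called. The call of Mup3 was lost when nuclei were cut into 2 equal zones (-0.26, adjusted p = 0.0702).

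Mup7 (0.19, SE 0.07, adjusted p = 0.0692), Mup1 (-0.03, SE 0.07, adjusted p = 0.784) and Mup12 (-0.01, SE 0.08, adjusted p = 0.948) gave no called zonal difference in chow. Without chow 3 Mup7 was called (0.32, adjusted p = 0.00504). The sum of the 9 genes was nearly flat, with pericentral over periportal ratios of 1.04, 1.12 and 0.986.

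**Figure D4:**
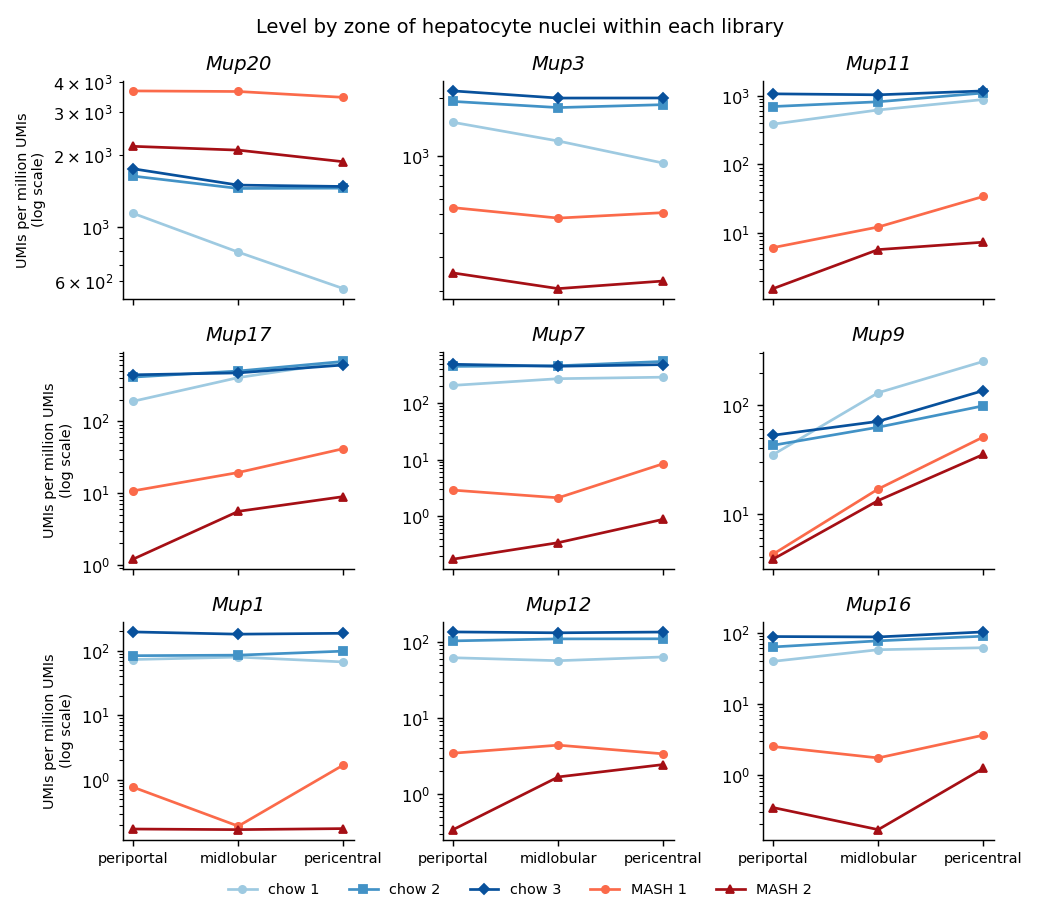
CPM (log axes that differ between panels) in the periportal, midlobular and pericentral zones of hepatocyte nuclei, 1 line per library, for each of the 9 genes. Mup9 climbs toward the pericentral zone in every library, Mup20 and Mup3 are lower in the pericentral than in the periportal zone of the 3 chow libraries, and several MASH points rest on fewer than 10 UMIs.

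In MASH, Mup9, Mup11, Mup17 and Mup7 were called higher pericentrally, where 13.1% of genes were called, 6.13% higher and 6.98% lower. Mup9 rose from 4.23 and 3.81 CPM in the periportal zone of MASH 1 and MASH 2 to 50.9 and 35.1 in the pericentral zone (3.40, SE 0.48, adjusted p = 0.000135). Mup11 rose from 6.15 and 1.56 to 34.2 and 7.38 (2.39, SE 0.39, adjusted p = 0.000488). Mup17 rose from 10.8 and 1.21 to 41.6 and 8.96 (2.10, SE 0.44, adjusted p = 0.0044).

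Mup7 (1.61, SE 0.41, adjusted p = 0.0155) rested on 15 and 1 periportal and 40 and 5 pericentral UMIs, and its call was lost without either MASH library and in 4 other settings. Without MASH 1 the calls of Mup11 (adjusted p = 0.17) and Mup17 (adjusted p = 0.205) were lost as well. Mup20 (-0.15, SE 0.14, adjusted p = 0.559) and Mup3 (-0.11, SE 0.12, adjusted p = 0.613) were not called in MASH, except Mup20 when chow 1 was left out of the shared spread (-0.14, adjusted p = 0.0484). Both were lower pericentrally in 2 of 2 libraries, with ratios of 0.941 and 0.864 for Mup20 and 0.942 and 0.909 for Mup3. Mup1, Mup12 and Mup16 were not called, with log2 differences of 0.94 (SE 0.76), 0.70 (SE 0.43) and 0.79 (SE 0.48). Over all zones of MASH 1 and MASH 2, Mup1 had 13 and 3 UMIs, Mup12 57 and 26, and Mup16 39 and 10. Such counts cannot show that the zones were alike, here or in the next test.

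The test of whether the zonal difference itself differed between diets called 1 of the 9 genes, Mup11 (1.79 more pericentral in MASH on the log2 scale, SE 0.42, adjusted p = 0.0201), where 4.13% of genes were called, 1.88% higher and 2.25% lower. That call was lost in 5 of 17 alternatives, among them without MASH 1 (1.63, adjusted p = 0.435) and without MASH 2 (1.90, adjusted p = 0.0899), and adjusted p ranged from 2.3e-06 to 0.435. Mup9 (1.71, SE 0.56, adjusted p = 0.108), Mup7 (1.42, SE 0.42, adjusted p = 0.0709), Mup17 (1.19, SE 0.48, adjusted p = 0.209), Mup20 (0.38, SE 0.18, adjusted p = 0.287) and Mup3 (0.23, SE 0.15, adjusted p = 0.469) were not called, nor were Mup1 (0.97, SE 0.76), Mup12 (0.71, SE 0.44) and Mup16 (0.42, SE 0.49). Without chow 1, Mup9 (2.16, adjusted p = 5.5e-07), Mup17 (1.56, adjusted p = 7.6e-05) and Mup7 (1.52, adjusted p = 0.019) were called. With no filter on low counts Mup7, Mup9, Mup17 and Mup20 were called (adjusted p = 0.00975, 0.000306, 0.00631 and 0.0386), and Mup7 was also called with DESeq2 (adjusted p = 0.0353), without chow 3 (0.0498) and without nuclei holding markers of other cells (0.0421).

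Hepatocyte nuclei with UMIs of genes that mark disease-associated hepatocytes (Nrg1, Anxa2, Sox4, Gdf15, Klf6 and Jun) held UMIs of the family. Non-parenchymal nuclei held them too, at 6158 and 2351 CPM in MASH 1 and MASH 2. The presence of these UMIs therefore does not show transcription in the marked nuclei. In nuclei with at least 2 such UMIs the 9 genes together had 3413, 4167 and 5397 CPM in chow and 3971 and 2297 in MASH, and in nuclei with none they had 3795, 6194 and 7176 in chow and 5000 and 2289 in MASH. Nuclei with the markers were lower in 4 of 5 libraries, the exception being MASH 2. Per nucleus they were higher in all 5 libraries, with 24.8 against 19.5 UMIs in MASH 1 and 17.2 against 9.75 in MASH 2. Mup20 had 3427 and 2050 CPM in marked nuclei of MASH 1 and MASH 2 and 4246 and 1986 in unmarked ones. A nucleus with more UMIs is more likely to hold 2 marker UMIs, so depth differs between these nuclei, and no test was run.

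The other 13 Mup symbols add a few genes with similar levels. Mup10 had 115, 55.4 and 62.4 CPM in chow hepatocyte nuclei and 44.4 and 40.3 in MASH, so that in MASH it was above every one of the 9 genes except Mup20 and Mup3. None of the windows in the last 500 bases of Mup10, Mup14, Mup15, Mup19 or Mup2 was unique to the gene, so their counts are as uncertain as to member as those of Mup1. Their results in the diet contrast, by which the 9 genes were chosen, are therefore no separate test. Mup14 had 27.0 to 49.8 in chow and 6.94 and 1.55 in MASH, and Mup21 had 32.9 to 48.8 in chow and 11.8 and 6.91 in MASH. Of the 13, 8 could be tested, 6 were called lower in MASH (Mup10, Mup14, Mup15, Mup18, Mup19 and Mup21) and 0 higher, where 4.48% of the 15414 genes tested were called lower and 9.26% higher, with a median log2 difference of -2.87 against 0.0010 for all genes. Mup15 was the lowest at -5.50 (SE 1.01, adjusted p = 0.0166) and Mup10 the least changed of the 6 at -1.17 (SE 0.29, adjusted p = 0.0391). The call of Mup10 was lost in 5 of 18 alternative settings, among them without MASH 1 and without MASH 2. Mup2 (-1.91, SE 0.68) and Mup8 (-3.24, SE 1.20) were not called, and Mup4, Mup5, Mup6, Mup13 and Mup22 had too few UMIs to be tested.

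Mup10 was singled out after its values were seen, so its zone and class values are given with no test. Its pericentral over periportal log2 difference was 1.39 (SE 0.11) in chow and 1.93 (SE 0.18) in MASH. Its TMM-scaled hepatocyte over non-parenchymal log2 difference was 0.95 (SE 0.17) in chow, or 0.20 with all nuclei lacking Hnf4a, and 0.92 (SE 0.20) in MASH. The transcripts of Mup9 and Mup10 were 94.8% identical. Mup18 was called higher pericentrally by edgeR in chow (0.92, SE 0.22, adjusted p = 0.00494) and in MASH (2.35, SE 0.59, adjusted p = 0.0142). Mup14 was called higher pericentrally in MASH (1.06, SE 0.30, adjusted p = 0.0258). Mup21, the close relative of Mup3, was lower pericentrally in MASH (-1.07, SE 0.17, adjusted p = 0.000482). The zonal difference of Mup21 was called as differing between diets (-0.93, SE 0.18, adjusted p = 0.00791).

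Genes beside the cluster were examined next. Within 1 Mb of the outermost of the 9 genes lay 34 other genes, of which 24 could be tested. Of these 2 were called higher and 1 lower, close to the 13.7% of all genes called in either direction, and the median log2 difference was -0.26. Gm13773, a processed transcript inside the cluster between Mup1 and Mup10, was the one called lower (-4.06, SE 0.98, adjusted p = 0.0351). Wdr31 (4.17, SE 0.65, adjusted p = 0.0104) and Zfp618 (2.32, SE 0.51, adjusted p = 0.0268), both beyond Mup3, were called higher.

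The gene lists in this and the following paragraphs were chosen with earlier results of these data known, so their calls and p values are descriptions. Of 7 hepatocyte markers 3 were called lower in MASH hepatocyte nuclei and 0 higher (median log2 difference -1.42; 4.48% of all genes were called lower and 9.26% higher). Among markers of other cells, 0 of 6 endothelial, 3 of 6 stellate, 3 of 6 macrophage, 1 of 7 lymphocyte and 2 of 3 tested cholangiocyte markers were called higher and 0 lower, with medians of 0.23, 1.02, 1.27, 1.67 and 2.21. Of the 6 disease-associated hepatocyte markers 4 were called higher and 0 lower (median 2.96). Of the 14 genes of the zone score, 3 of 7 pericentral ones were called higher and 1 lower (median -0.07), and 0 of 7 periportal ones were called higher and 1 lower (-1.23). Of the held-out zonal genes, 1 of 4 pericentral ones was called lower and 0 of 4 periportal ones were called.

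Most of the listed genes with a male-biased liver pattern like that of the family were lower in MASH hepatocyte nuclei. This list too was chosen with earlier results known. Of 16 listed male-biased genes, 13 were called lower and 0 higher (4.48% and 9.26% of all genes), with a median log2 difference of -3.03. Hsd3b5, a steroid-metabolising enzyme, was at -9.18 (SE 1.38, adjusted p = 0.00896), and Serpina1e, a serine protease inhibitor secreted to plasma, at -6.91 (SE 0.94, adjusted p = 0.00702). Cyp7b1, an oxysterol hydroxylase, was at -4.71 (SE 0.38, adjusted p = 0.00185), and Selenbp2, a selenium-binding protein, at -4.69 (SE 0.49, adjusted p = 0.00346). Cyp2u1 (0.12), Cyp2d9 (-0.61) and Ces2b (-5.86, adjusted p = 0.0822) did not pass. Of 19 listed female-biased genes 10 could be tested, of which 4 were called higher (Cyp2a4, Prom1, Cyp2b9 and Cyp2b13) and 1, Cyp2c40, lower (-6.86, SE 1.57, adjusted p = 0.0304). Cyp2a4 was at 6.08 (SE 0.95, adjusted p = 0.0104).

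Among 20 genes of growth hormone signalling and hepatocyte transcription, 6 were called lower and 0 higher (4.48% and 9.26% of all genes), with a median of -0.67. Those that passed were Onecut1 (-3.86, SE 0.89, adjusted p = 0.0305), a hepatocyte transcription factor, Socs2 (-3.68, SE 0.46, adjusted p = 0.00539), Cish (-3.20, SE 0.44, adjusted p = 0.00725) and Socs3 (-2.66, SE 0.55, adjusted p = 0.0226), feedback inhibitors that STAT factors induce, together with Igf1 and Foxa3. The receptor Ghr (-0.01, SE 0.41), the kinase Jak2 (0.08, SE 0.33), Stat5a (0.03, SE 0.43) and Stat5b (-0.27, SE 0.32) did not pass, and the repressor Bcl6 was at 0.84 (SE 0.34, adjusted p = 0.131). On simulated data the diet test recovered 51% of 4-fold and 2.11% of 2-fold changes, so these values do not show that the genes were alike in both diets.

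Of the other lipocalins, 9 of 11 could be tested, C8g (-1.28, SE 0.25, adjusted p = 0.019) and Apom (-1.56, SE 0.43, adjusted p = 0.0495) were called lower, and 0 were called higher (median -1.43). Of 20 secreted plasma proteins 7 were called lower and 0 higher (median -1.42), led by Serpina3k (-3.95, SE 0.53, adjusted p = 0.0066), Fgg (-3.41, SE 0.85, adjusted p = 0.038), Fgb (-2.92, SE 0.65, adjusted p = 0.0275) and Serpina1c (-2.81, SE 0.45, adjusted p = 0.0112). Transcripts of this list were also found in non-parenchymal nuclei. The non-parenchymal over hepatocyte ratio of CPM had a median over the list of 1.07, 1.53 and 1.39 in chow libraries 1 to 3 and 1.34 and 0.985 in MASH, against 1.32, 2.20, 2.29, 1.49 and 0.936 for the 9 Mup genes.

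**Figure D5:**
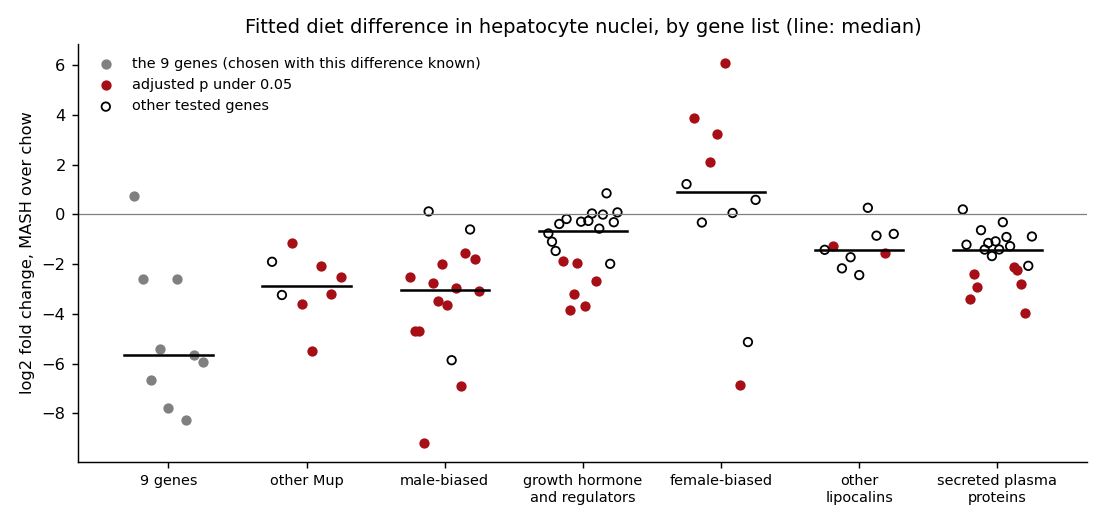
Fitted log2 fold change of hepatocyte nuclei, MASH over chow, for every tested gene of 7 lists (filled red, adjusted p under 0.05 by edgeR; open, other; grey, the 9 genes, given without a call), with a line at each median. The medians are -5.65 for the 9 genes, -2.87 for other Mup genes, -3.03 for male-biased, -0.67 for growth hormone and hepatocyte regulators, 0.90 for female-biased genes, -1.43 for other lipocalins and -1.42 for secreted plasma proteins. All 7 lists were chosen with earlier results of these data known.

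The genes most like the family were sought over 15 sums (5 libraries by 3 zones) among 10563 genes, by the Pearson correlation of log2(CPM + 1). The sums share libraries, so the correlations are descriptions only. For the 9 genes together they were Rpl32, Cox7c, Apoc1, Skiv2l and Rpl11 (r of 0.964 for Rpl32). For Mup3 they were Wfdc21 (0.986), Elob, Ndufb9, Serpina1e and Atp5md (0.968). For Mup20 they were Ccser2 (0.958), Ssr1, Eif2ak2, Apoa4 and Arhgef11 (0.915). For Mup9, added after its values were seen, they were Susd4 (0.959), Gm10734, Gpcpd1, Elovl3 and 9130230L23Rik (0.934), and Susd4 and Elovl3 are also among the male-biased genes called lower in MASH.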

How the data were processed

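Liver nuclei of 5 libraries (3 chow, 2 MASH) were sorted and made into droplet-based 3′ libraries. The deposited values are UMI counts of each gene in each nucleus, not normalized, which the authors obtained with Cell Ranger 8.0.1 on GRCm38 with intronic reads left out. Reads that fit several genes are not counted by this software. Depth per library stands in the report.

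Hepatocyte and non-parenchymal classes were defined as in the report, the latter with at least 300 genes. UMIs were summed per library and class with scanpy 1.11.5 and numpy 2.4.6, and sums were tested with edgeR 4.0.16 (quasi-likelihood, TMM, filterByExpr, Benjamini-Hochberg over all genes tested, adjusted p under 0.05), in 1 fit each for diet, zone and class. The alternatives were RLE size factors, DESeq2 1.42.0, Storey q-values, other filters and limits on nuclei, 2 zones in place of 3, and leaving out each library. Doublets were left in, and removing the nuclei with the highest doublet scores was an alternative. The diet, zone and class fits were tested on simulated data, with recovery measured for zone and class in chow only. Coordinates and transcripts are from GENCODE M21, promoters from RefSeq (GRCm38.p6), and alignments from Biopython 1.88.

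The 9 genes and all gene lists were chosen with earlier results of these data known. By rule the text names the 9 genes, the other Mup symbols, genes within 1 Mb, the 4 called genes with the largest change in each list it describes gene by gene, and the 5 genes most correlated with a pattern. Further list genes (Cyp2u1, Cyp2d9, Ces2b, Cyp2b13, Igf1, Foxa3, Ghr, Jak2, Stat5a, Stat5b and Bcl6), and the markers used to define classes, were named outside this rule, after values were seen.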

Additional observations from a re-analysis of the deposited data

Results flagged for a closer look

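The pericentral over periportal log2 difference of Mup11 was 1.795 larger in MASH than in chow (SE 0.42, adjusted p = 0.0201, edgeR interaction test), which stands here because the test of the difference between the diets passed. The pericentral over periportal ratio was 2.28, 1.57 and 1.10 in chow libraries 1 to 3 and 5.55 and 4.74 in MASH libraries 1 and 2, so every MASH ratio lay above every chow ratio, and all 5 were above 1. The MASH ratios rested on 32 and 9 periportal and 161 and 42 pericentral UMIs. Mup11 had 822, 1853 and 2488 CPM in chow non-parenchymal nuclei and 20.9 and 4.82 in MASH ones. In hepatocyte nuclei it had 636, 864 and 1089 in chow and 17.0 and 4.89 in MASH. The part of RNA from outside a nucleus in these ratios was not tested.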

How the results depend on the processing

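For diet (2117 called), DESeq2 called 3598, no filter on low counts 3322, Storey q-values 4063, and leaving out 1 library gave 216 (without MASH 2) to 3298 (without chow 1). For zone in chow (3681) DESeq2 called 2408 and leaving out 1 library gave 2643 to 3320. For zone in MASH (1906) the counts were 1176 with DESeq2, 850 without nuclei holding markers of other cells, 1057 with 2 zones and 369 to 2400 without 1 library. For the difference in zonation (601) they were 382 without such nuclei, 159 with 2 zones and 101 to 903 without 1 library. For hepatocyte against non-parenchymal nuclei, chow (9097) gave 4687 with all nuclei lacking Hnf4a, 5617 with at least 2000 UMIs, 13694 per nucleus and 7587 to 9213 without 1 library, and MASH (5987) gave 3219, 12985 per nucleus and 2417 to 6440 without 1 library. The causes were not tested. Fits per nucleus, and those with at least 2000 UMIs in both classes, were added after seeing the data. Per nucleus, 2465 genes were higher and 268 lower for diet (1427 and 690 with TMM), 11215 and 2479 for class in chow, and 12151 and 834 in MASH. With RLE size factors the difference in zonation gave 358 higher and 285 lower (274 and 327 with TMM).

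Whether replicate numbers pair the libraries could not be settled. Deviations of same-numbered chow and MASH libraries correlated at r = -0.13 (number 1) and -0.20 (number 2). With 2 MASH libraries their deviations mirror each other, so this check cannot exclude pairing. The replicate block gave 1937 calls for diet and kept the direction of all 9 genes.

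Some differences changed sign; those outside the fits per nucleus were not called. Zone in chow: Mup1 was 0.011 with at least 2 Hnf4a UMIs and -0.15 to 0.017 without 1 library, and Mup12 was 0.013 with at least 1000 UMIs, 0.037 with at least 2 Hnf4a UMIs and -0.042 to 0.011 without 1 library. Zone in MASH: Mup12 was -0.56 without nuclei holding other markers and -0.0047 to 2.77 without 1 library. Difference in zonation: Mup16 was -0.32 with at least 2 Hnf4a UMIs and Mup12 -0.44 without nuclei holding other markers. Class in chow: Mup9 was -0.17 with all nuclei lacking Hnf4a and -0.35 to 0.48 without 1 library. Class in MASH, at least 2000 UMIs: Mup11 was 0.052, Mup12 0.16 and Mup16 0.16. Without 1 library, class in MASH ran from -0.95 to 0.54 for Mup7, -0.38 to 0.15 for Mup11, -0.69 to 0.44 for Mup12, -0.47 to 1.25 for Mup16, -0.70 to 0.23 for Mup17 and -0.63 to 0.12 for Mup20. Per nucleus, class in chow gave Mup1 0.52, Mup3 0.61, Mup7 0.43, Mup11 0.59, Mup12 0.57, Mup16 0.65, Mup17 0.53 and Mup20 0.53. Per nucleus, class in MASH gave Mup1 0.62, Mup3 1.06, Mup7 0.74, Mup11 1.33, Mup12 1.16, Mup16 1.32, Mup17 1.15 and Mup20 1.25. The MASH values of Mup1 and Mup7 were not called.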
